A study of Mus musculus with 2 samples.

Results

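The genes described here encode 10 secreted or surface proteins of innate host defence: the whey acidic protein (WAP) domain genes Wfdc21, Wfdc2 and Slpi, the liver peptide gene Leap2, the peptidoglycan recognition genes Pglyrp1 and Pglyrp2, the lipopolysaccharide binding genes Lbp and Cd14, and the ribonuclease genes Ang and Rnase4. They were taken by name, as every probe set annotated to one of these symbols, which gave 13 of 45101 probe sets and 10 of 18194 genes on the array. The names were put together with the FLS/DS ratios of these same arrays known, so their ratios are given as a description. RNA was pooled from the livers of 3 fatty liver Shionogi (FLS) mice, an inbred strain that served as the model of non-alcoholic steatohepatitis (NASH), and from 3 dd Shionogi (DS) mice, an inbred sister strain that served as the model of simple steatosis. Both strains came from lines of an outbred ddN colony, were 19 weeks old, ate the same standard pellet diet and received no treatment. Each pool was hybridized to 1 Affymetrix genome-wide mouse expression array, so the differences lack replicates and carry no p-value.

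The liver guards the blood that drains the gut, and hepatocytes release much of the soluble defence machinery of plasma. WAP proteins carry a compact domain held by disulfide bonds, and several of them block serine proteases. LBP in plasma lifts lipopolysaccharide, the outer membrane lipid of Gram-negative bacteria, from bacterial surfaces and hands it to CD14, which passes it to the receptor TLR4 and its partner MD-2. Peptidoglycan recognition proteins bind the bacterial cell wall, and ribonucleases of the RNase A family cleave RNA outside and inside cells, some of them with antimicrobial activity.

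Intensities are given on a linear scale with arbitrary units, and a fold change is the FLS signal over the DS signal. A gene was read from whichever of its probe sets was brightest on average. A signal below 200 was treated as not measured, so that a ratio with 1 such signal is a bound. Counts, medians and ranges over many genes use the ratios as measured, those with 1 signal below 200 included. The median signal of all probe sets was 120.3 on the FLS array and 125.2 on the DS array, and a signal of 200 was reached by 32.5% of them on the FLS array and 32.8% on the DS array. All 14 hepatocyte markers on the array exceeded 200, with fold changes between 0.867 and 1.35. Over the 9160 genes with a signal of at least 200 in 1 pool or more, the log2 ratio had a median of 0.03, and 1.89% had a fold change of 2 or more while 1.30% had one of 0.5 or less.

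Of the 10 host-defence genes, 9 reached a signal of 200 in at least 1 pool, and 3 of these (Wfdc21, Ang and Rnase4) had a fold change of 2 or more, against 1.89% of all genes. A fold change of 0.5 or less was found for 2 (Wfdc2 and Lbp), against 1.30% of all genes. The other 4 (Slpi, Leap2, Pglyrp2 and Cd14) had ratios below 1 but above 0.5. Pglyrp1 was below 200 in both pools. Since the genes were named with these ratios known, nothing is read from the counts. Their median log2 ratio, over 9 genes, was -0.26.

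**Figure D1:**
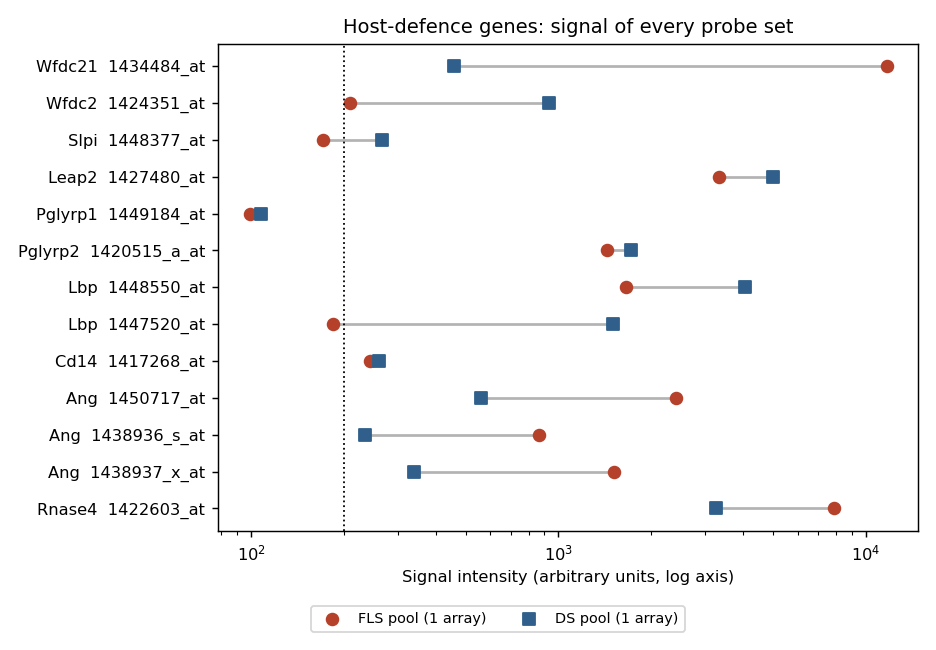
Signal intensity (log axis, arbitrary units) of all 13 probe sets of the host-defence genes on the FLS array (circles) and on the DS array (squares), with a dotted line at 200. Wfdc21, all 3 probe sets of Ang and Rnase4 have the FLS signal to the right of the DS signal, while Wfdc2 and both probe sets of Lbp have it far to the left.

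The WAP domain genes did not share a direction. Wfdc21, which encodes a small secreted WAP protein also listed as Wdnm1-like, gave signals of 11684 in FLS livers and 458 in DS livers, or an FLS/DS ratio of 25.5. This was the highest ratio of all 9160 genes, and both signals lay above 200, so it is not a bound. Wfdc21 has 1 probe set on the array.

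Wfdc2, whose human counterpart HE4 is a serum marker of ovarian cancer, gave signals of 210.3 in FLS livers and 934 in DS livers, or an FLS/DS ratio of 0.225. Its ratio ranked 24 from the lowest of the 9160 genes. Its FLS signal was the member signal closest above 200. Slpi, the secretory leukocyte protease inhibitor, which blocks elastase and cathepsin G of neutrophils, gave a signal of 172 in FLS livers and 268 in DS livers. With the FLS signal below 200, Slpi was at least 1.34-fold lower in FLS livers, and the ratio as measured was 0.641.

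Of 22 other WAP domain genes listed, 14 were on the array and 4 reached 200, none of them with a 2-fold difference. Wfdc17, which lies next but one to Wfdc21 in gene order, gave signals of 1044 in FLS livers and 1398 in DS livers, or an FLS/DS ratio of 0.747. Wfdc1 had a fold change of 0.893 with signals near 200. Wfdc3 gave a signal of 204 in FLS livers and 172 in DS livers, at least 1.02-fold higher in FLS livers. Its other probe set was below 200 in both pools, with a ratio as measured of 0.798. These 4 genes had a median log2 ratio of -0.08, beside 0.03 for all genes.

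Neutrophils and bile duct epithelium are other sources of WAP proteins in liver. In bulk liver, fewer cells of a type and less RNA per cell cannot be told apart. Of 15 neutrophil markers, 13 were on the array, 3 reached 200 and 10 were below 200 in both pools. The summed signal over all 13 was 1709 on the FLS array and 1885 on the DS array. A sum over markers mostly below 200 is no measure of cell number. Csf3r and Ngp had fold changes of 1.05 each. Mpo gave a signal of 171 in FLS livers and 213 in DS livers, at least 1.07-fold lower in FLS livers. S100a8 and S100a9 of this list were below 200 in both pools. In tissue sections, the paper stained neutrophils, lymphocytes and macrophages within clusters in FLS livers. It also counted more inflammatory foci in FLS than in DS livers. Marker signals below 200 in bulk RNA thus do not show that such cells were absent. Elane and Ctsg, the genes of the proteases that SLPI blocks, were below 200 in both pools, and Grn, the progranulin gene whose product SLPI protects from cleavage, had a fold change of 1.08. Of 11 biliary markers, 8 were on the array, with a summed signal of 1080 on the FLS array and 896 on the DS array, and 6 of them were below 200 in both pools. Without Sox9 the other 7 summed to 715 on the FLS array and 756 on the DS array. Krt7 and Krt19 were below 200 in both pools. Sox9 was at least 1.83-fold higher in FLS livers, at 365 against 140.2 in DS livers, while Epcam gave a signal of 182 in FLS livers and 211 in DS livers. The other probe sets of both genes were below 200 in both pools. Their ratios as measured were 1.40 and 1.49 for Sox9 and 1.31 for Epcam. The part of either cell type in the values of Slpi and Wfdc2 was not tested.

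Ang and Rnase4, neighbours on chromosome 14, were both higher in FLS livers. Ang encodes angiogenin, a ribonuclease that promotes vessel growth and cleaves transfer RNA under stress, and Rnase4 encodes a ribonuclease that prefers to cut after uridine. In the mouse both are made from a shared promoter, with a separate coding exon for each. The RefSeq promoter table of build GRCm38.p6 lists 1 identical window for both genes and a further window for Rnase4 alone. The 250 bases before each start are shown because these 2 genes were higher together. Capitals mark a run of 15 bases, CCAGGGGAGAACCTT, that occurs in 2 copies side by side from 204 to 175 bases before the start, and the window of Rnase4 alone has no capitals.
Ang and Rnase4, chr14:51090827-51091076, plus strand: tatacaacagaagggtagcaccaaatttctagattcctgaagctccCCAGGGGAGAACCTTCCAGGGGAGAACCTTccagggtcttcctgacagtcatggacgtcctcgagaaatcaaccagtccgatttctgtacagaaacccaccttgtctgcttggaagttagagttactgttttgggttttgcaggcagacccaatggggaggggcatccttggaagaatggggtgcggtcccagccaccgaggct
Rnase4 alone, chr14:51095750-51095999, plus strand: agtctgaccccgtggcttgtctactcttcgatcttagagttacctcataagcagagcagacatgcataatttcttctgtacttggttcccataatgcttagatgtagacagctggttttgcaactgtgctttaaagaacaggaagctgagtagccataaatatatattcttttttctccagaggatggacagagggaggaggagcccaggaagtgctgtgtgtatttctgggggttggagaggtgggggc

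An exact repeat of at least 15 bases without overlap was found in 2.48% of 32536 different windows of this length in the table. Motifs of common promoter elements were searched on both strands. The letters CCAAT were in the shared window, as in 33.8% of all windows, but not in that of Rnase4 alone. The letters TATAAA, found in 12.3% of all windows, were in neither. The same held for the GC box GGGCGG, found in 33.0% of all windows, and for the E-box CACGTG, found in 6.04%. The CCAAT match did not overlap the repeat. The windows differed in base composition, with 52.4% G and C in the shared window and 46.0% in that of Rnase4 alone. A match is a description of the letters and not a binding site. The table held windows for 6 of the 10 genes, with Slpi, Wfdc2, Pglyrp1 and Pglyrp2 the others.

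Ang was measured by 3 probe sets. The 1450717_at probe set gave signals of 2415 in FLS livers and 559.7 in DS livers, or an FLS/DS ratio of 4.31. The 1438937_x_at probe set gave signals of 1512 in FLS livers and 338 in DS livers, or an FLS/DS ratio of 4.47. The 1438936_s_at probe set gave signals of 864 in FLS livers and 235 in DS livers, or an FLS/DS ratio of 3.68. The 3 ratios spanned 0.28 on the log2 scale, and all 6 signals exceeded 200. Names ending in _x_at or _s_at mark probe sets whose probes may match other transcripts. Whether they did so here was not tested. The probe sets used for the relatives Ang2, Ang3 and Ang4 were below 200 in both pools.

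Rnase4 gave a signal of 7908 in FLS livers and 3254 in DS livers on its single probe set, a fold change of 2.43. Every probe set of Ang thus had a higher ratio than that of Rnase4, the closest by 0.60 and the one used for the gene by 0.83 on the log2 scale. The SD between measured probe sets of 1 gene was 0.22 over 2790 genes. That SD describes probe sets within genes on this pair of arrays. It holds no spread between arrays or mice, so it is no test of the difference between Ang and Rnase4. The ratio of Ang ranked 30 and that of Rnase4 ranked 104 from the highest among 9160 genes.

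The rest of the RNase A family gave little signal. Of 21 listed names, which include the inhibitor Rnh1, 9 were on the array and 2 reached 200. Rnase1, the pancreatic type ribonuclease, gave signals of 206 in FLS livers and 233 in DS livers, or an FLS/DS ratio of 0.885. Rnh1, whose product binds and blocks ribonucleases of this family, angiogenin included, gave signals of 1664 in FLS livers and 1707 in DS livers, or an FLS/DS ratio of 0.975. Ang and Rnase4 differed between the pools while their inhibitor lay within 1.03-fold.

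Lbp was lower in FLS livers on both of its probe sets, but by unequal amounts. The 1448550_at probe set gave signals of 1662 in FLS livers and 4034 in DS livers, or an FLS/DS ratio of 0.412. The 1447520_at probe set gave a signal of 185 in FLS livers and 1499.85 in DS livers, and as the FLS signal was below 200, Lbp was at least 7.50-fold lower in FLS livers on this probe set. Its ratio as measured was 0.123. The log2 ratios of these probe sets, as measured, were 1.74 apart. The SD of 0.22 between measured probe sets of 1 gene is not a like measure here. It covers only probe sets with both signals of at least 200. On the first probe set, Lbp ranked 86 from the lowest of 9160 genes.

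Cd14, the membrane protein that takes over lipopolysaccharide from LBP on macrophages and, in soluble form, in plasma, gave signals of 244 in FLS livers and 261 in DS livers, or an FLS/DS ratio of 0.935. With every ratio divided by the Actb ratio it was 1.08. Kupffer cells and other macrophages carry CD14, and 14 of 18 of their markers reached 200, 11 of them with ratios below 1. Vsig4, a complement receptor of Kupffer cells, had a fold change of 0.554, Cd5l of 0.657, and Timd4 was below 200 in FLS livers and at 202.5 in DS livers. The 3 markers with ratios above 1 were Lyz2 at 1.43, C1qa at 1.04 and Cd68. Cd68 gave a signal of 236 in FLS livers and 187 in DS livers. The summed signal of the 18 markers was 8983 on the FLS array and 10559 on the DS array, with a median log2 ratio of -0.33 over the 14. Their part in the value of Cd14 was not tested.

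The steps after CD14 showed no shared direction. Of 31 genes of lipopolysaccharide sensing listed, 26 were on the array and 18 reached 200, of which none reached a 2-fold higher and 1 a 2-fold lower signal in FLS livers, beside 1.89% and 1.30% of all genes. Their median log2 ratio was 0.02. Ly96, the gene of MD-2, which holds lipopolysaccharide in the receptor complex, gave signals of 334 in FLS livers and 220.2 in DS livers, or an FLS/DS ratio of 1.52. Tlr4 itself was below 200 in both pools on each of its probe sets. Itgb2, the integrin chain of leukocyte complement receptors, gave a signal of 226 in FLS livers and 151 in DS livers.

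The gene at least 2-fold lower was Map3k7, which encodes the kinase TAK1 downstream of TLR4. Its signal was 155 in FLS livers and 424 in DS livers, at least 2.12-fold lower in FLS livers. The other probe sets of Map3k7 had ratios as measured between 0.784 and 1.08 with signals below or near 200, so the difference rested on 1 probe set.

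**Figure D2:**
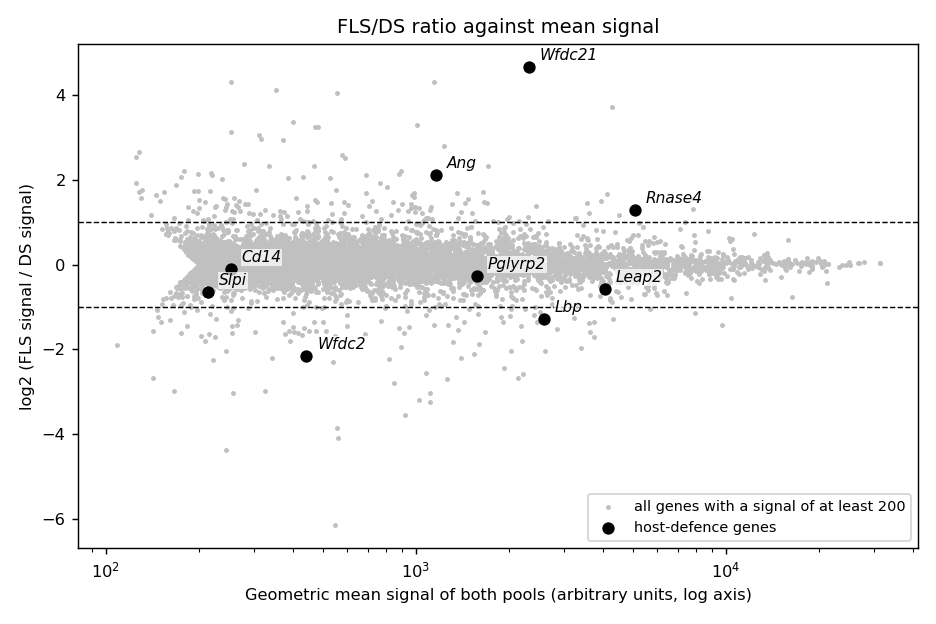
The log2 FLS/DS ratio against the geometric mean signal of both pools (log axis) for the 9160 genes with a signal of at least 200 in 1 pool or more (grey) and the 9 host-defence genes among them (black), with dashed lines at a 2-fold difference. Wfdc21, Ang and Rnase4 lie above the upper line, Wfdc2 and Lbp below the lower line, and Cd14, Slpi, Pglyrp2 and Leap2 between the lines.

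Of the peptidoglycan recognition genes, Pglyrp2 was measured and Pglyrp1 was not. Pglyrp2 encodes an amidase of plasma, made in the liver, that cuts the peptide from the sugar chain of peptidoglycan. It gave signals of 1438 in FLS livers and 1727 in DS livers, or an FLS/DS ratio of 0.832. Pglyrp1, a bactericidal protein of neutrophil granules, gave a signal of 98.9 in FLS livers and 107 in DS livers, both below the array medians, and no fold change is given.

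Of 29 other genes of pattern recognition listed, 24 were on the array and 13 reached 200, with 1 higher by 2-fold or more in FLS livers, beside 1.89% of all genes, and none lower by as much, beside 1.30%. Their median log2 ratio was 0.09. The higher one was Clec7a, the gene of the beta-glucan receptor dectin-1, with a signal of 449 in FLS livers and 150.4 in DS livers, at least 2.24-fold higher in FLS livers. Fcna, the gene of a ficolin that binds microbial sugars and is made by macrophages, gave signals of 542 in FLS livers and 962 in DS livers, or an FLS/DS ratio of 0.563. Mbl2, a mannose binding lectin secreted by hepatocytes, had a fold change of 1.36.

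Leap2 encodes a peptide of liver and small intestine that was found for its antimicrobial activity and also blocks the ghrelin receptor. It gave signals of 3321 in FLS livers and 4976 in DS livers, or an FLS/DS ratio of 0.667, and ranked 325 from the lowest of 9160 genes. The genes of ghrelin, of its receptor and of its acyltransferase (Ghrl, Ghsr and Mboat4) did not reach 200. The single measured gene of this list was Ghr, which encodes the growth hormone receptor and not the ghrelin receptor. Ghr had a fold change of 0.852 on the probe set with the highest signal, and of 0.655 and 0.612 on the others.

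Of 36 other antimicrobial peptides and proteins listed, 34 were on the array and 14 reached 200, with 2 higher by 2-fold or more in FLS livers, beside 1.89% of all genes, and none lower by as much, beside 1.30%. Their median log2 ratio was 0.29, with 9 ratios above 1 and 5 below 1. Lcn2, the siderophore binding lipocalin, gave signals of 1440 in FLS livers and 332 in DS livers. Saa3, an acute phase apolipoprotein, gave signals of 1242 in FLS livers and 553 in DS livers. Lcn2 and Saa3, like Ang and Rnase4 above, are among the genes the study selected on the same arrays. For Lcn2, the paper also reported higher expression in FLS livers by quantitative PCR, more of its protein by western blot and more positive cells by staining. Gbp2, an interferon-induced GTPase gene, gave a signal of 220.2 in FLS livers and 120.3 in DS livers, at least 1.10-fold higher in FLS livers. Its other probe set gave 229 in FLS livers and 110 in DS livers. The next 4 genes of this list were chosen with their values in view, among them the serum amyloid A genes Saa1 and Saa2. Saa1 gave signals of 4951 in FLS livers and 6464 in DS livers, or an FLS/DS ratio of 0.766. Saa2 gave signals of 1331 in FLS livers and 1705 in DS livers, or an FLS/DS ratio of 0.780. Hamp, the gene of the iron hormone hepcidin, which was also found as a liver antimicrobial peptide, gave signals of 15898 in FLS livers and 9555 in DS livers, or an FLS/DS ratio of 1.66. The lysozyme gene Lyz1 had a fold change of 1.67.

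**Figure D3:**
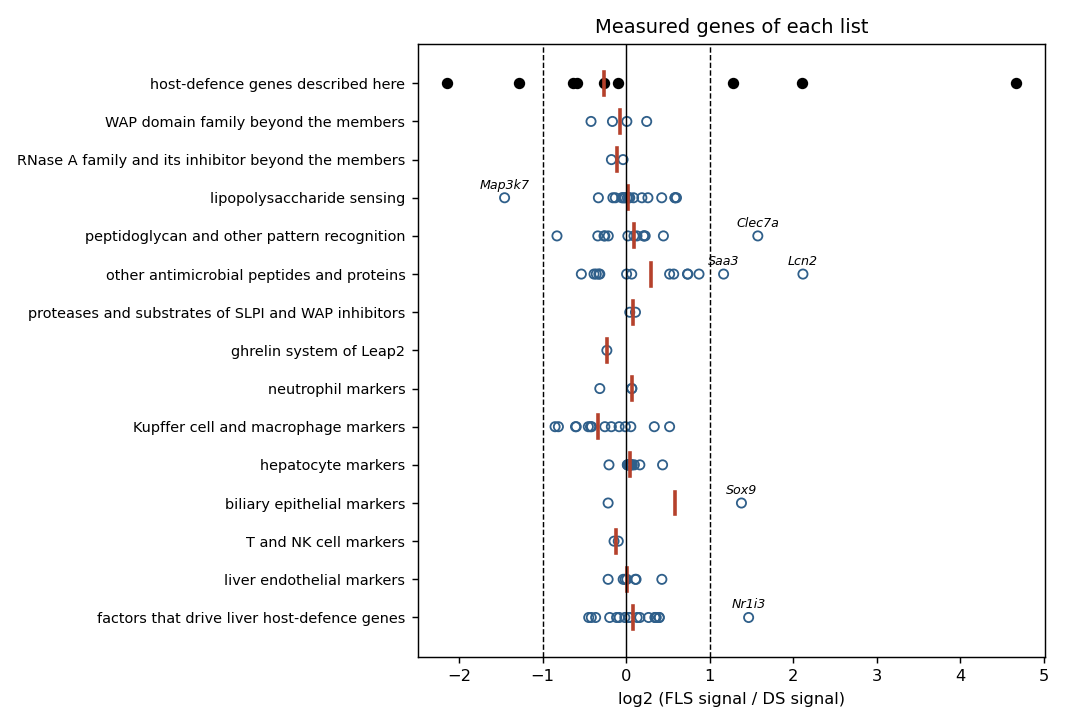
The log2 FLS/DS ratio of each measured gene in the host-defence group (filled circles) and in the other gene lists (open circles), with a red bar at the median of each list and dashed lines at a 2-fold difference. The host-defence genes run from -2.15 (Wfdc2) to 4.67 (Wfdc21), while in the other lists only the named genes lie outside the dashed lines.

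Neighbouring genes were set beside the host-defence genes, with RefSeq GRCm38.p6 used for gene order alone and up to 5 protein-coding genes on each side. Around Wfdc21, 9 neighbours were on the array, and the 4 that reached 200 had fold changes from 0.747 to 1.42. Wfdc18, the WAP gene next to it, gave a signal of 87.2 in FLS livers and 103 in DS livers, both below 200.

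Around Lbp, the 5 measured neighbours had fold changes from 0.937 to 1.14, and around Leap2 the 5 measured ones from 0.999 to 1.34. Beside Wfdc2 the picture was mixed. Dbndd2 on one side gave signals of 643 in FLS livers and 270.0 in DS livers, or an FLS/DS ratio of 2.38, opposite in direction to Wfdc2. Sdc4, a syndecan gene that lies between Slpi and Wfdc2, gave signals of 5068 in FLS livers and 2860.4 in DS livers, or an FLS/DS ratio of 1.77. Pigt, next to Wfdc2, had a fold change of 1.07. Around Ang and Rnase4, Rnase1 was the only other measured neighbour.

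**Figure D4:**
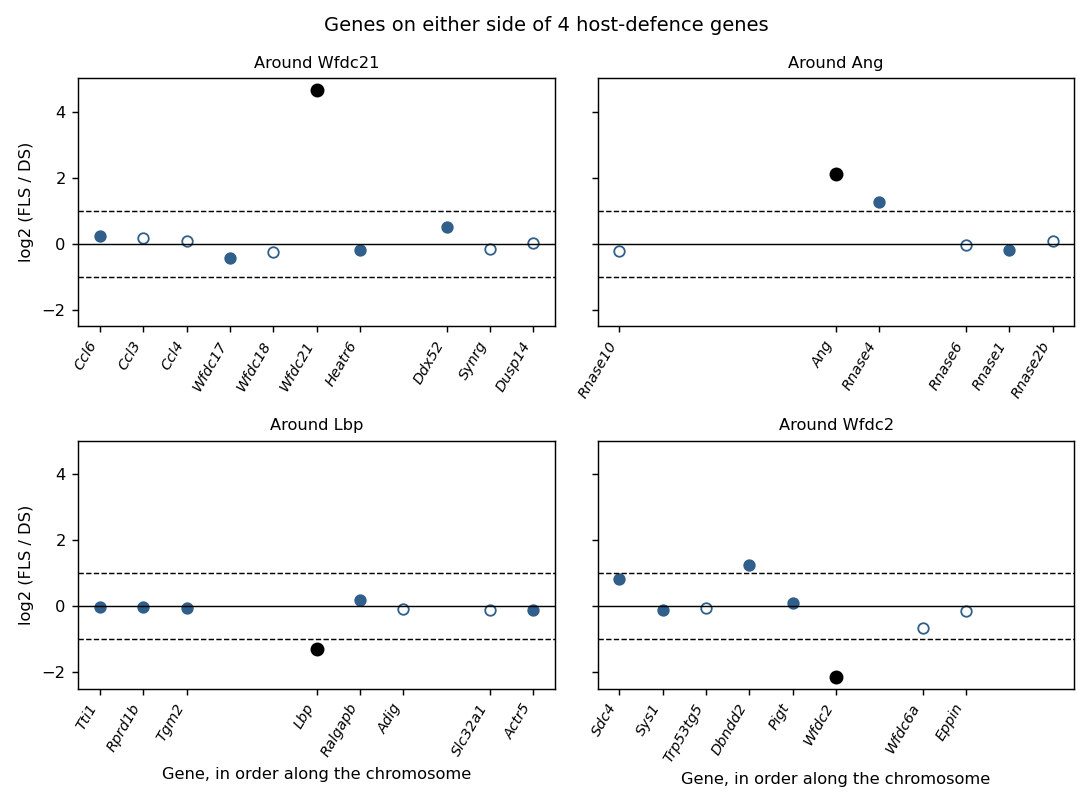
The log2 FLS/DS ratio of up to 5 protein-coding genes on each side of Wfdc21, Ang, Lbp and Wfdc2 in gene order, without distances, with the gene itself in black, neighbours with a signal of at least 200 filled and others open, and dashed lines at a 2-fold difference. Rnase4 (1.28) beside Ang is the only neighbour in the panel of Ang above the upper line, and Dbndd2 is the only one in the panel of Wfdc2.

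The genes kept their side of a 2-fold difference over the ways tried to scale the arrays. With the deposited values and 4 other scalings, Wfdc21 had fold changes from 24.8 to 29.4, followed by ranges from 4.24 to 4.97 for Ang, from 2.42 to 2.80 for Rnase4, from 0.408 to 0.475 for Lbp and from 0.221 to 0.260 for Wfdc2. Leap2 ranged from 0.663 to 0.769 and Pglyrp2 from 0.821 to 0.960. Cd14 ranged from 0.923 to 1.08, so it had no settled direction.

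**Figure D5:**
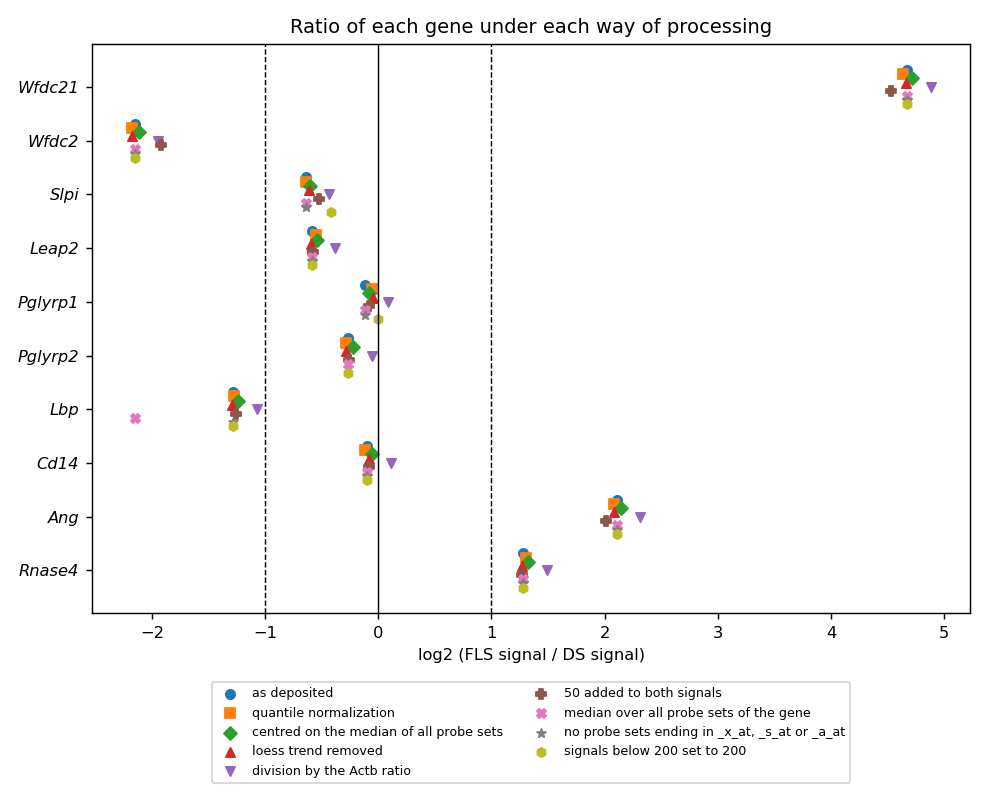
The log2 FLS/DS ratio of each host-defence gene as deposited and under 8 other ways of processing (symbols), with dashed lines at a 2-fold difference. Wfdc21, Ang and Rnase4 stay above the upper line and Wfdc2 and Lbp below the lower line, and the widest shift is that of Lbp, to a ratio of 0.226, when the median of its probe sets is taken.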

How the data were processed

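Pooled liver RNA of 3 FLS and of 3 DS mice was measured on 1 Affymetrix array each. Per the methods, the authors obtained the deposited intensity values from perfect-match probes by a model-based expression index (MBEI) and normalized them. The scaling method, which bears on every ratio, is not stated in these sources. According to the submitters' processing notes affy was used, with no version stated.

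FLS/DS ratios were computed without offset or further scaling. In the platform annotation 34958 probe sets carried 1 gene symbol, 932 carried several and 9211 none. Symbols were updated through RefSeq gene numbers for 34754. Each gene was read from the probe set brightest on average over both arrays, and was counted with a signal of at least 200 in 1 pool or more. Bounds set a signal below 200 to 200. Named genes were the 10 members, Actb, Tlr4, Ly96, Rnh1 and up to 3 measured genes per list with the largest absolute log2 ratio. Others, such as Lyz1, Saa1, Saa2, Krt7, Wfdc18 and the neighbouring genes, were picked with their values in view. The members and lists were chosen with earlier results of these data known. Missing list genes were not analysed here.

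Alternatives were quantile normalization, median centring, loess (fraction 0.4), division by Actb, an offset of 50, the median over probe sets, omission of probe sets ending in _x_at, _s_at or _a_at, signal limits of 500 or none or 200 in both pools, and ratio limits of 1.5 and 3. Setting signals below 200 to 200 was added after seeing the data. The calculations were tested on simulated data. With 2 arrays, their number limits the precision, and pooling leaves no measure of the spread between mice. The software was Python 3.11.15 with matplotlib 3.10.9, statsmodels 0.14.6, numpy 2.4.6 and pandas 2.3.3.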

Additional observations from a re-analysis of the deposited data

How the results depend on the processing

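The count of 3 host-defence genes higher and 2 lower by 2-fold or more in FLS livers was the same in 11 of 13 alternatives tried. Several of these could not change it. Both signals of each called gene exceeded 200 on the probe set used. Setting low signals to 200, or a limit of 200 in both pools, thus could not remove a called gene. With a ratio limit of 3 in place of 2, 2 genes were higher and 1 lower, since Rnase4 and Lbp lie between these limits. With a ratio limit of 1.5, 3 were higher and 3 lower, the addition being Slpi by its ratio as measured. The median log2 ratio of the group stayed within 0.22, the SD between probe sets of 1 gene, in every alternative that gave it. Of 79 ratios of single genes under 8 alternatives, 76 stayed within that SD and 3 did not, with Wfdc2 at 0.265 with an offset of 50, Lbp at 0.226 as the median of its probe sets and Slpi at 0.747 with signals below 200 set to 200, and none of the called genes changed direction. Part of the 76 could not move. The median over probe sets cannot alter the 8 genes with 1 probe set. Omission of suffixed probe sets left every kept gene at its deposited ratio. Setting signals below 200 to 200 could alter only Slpi and Pglyrp1. These unmoved ratios say nothing about stability. Division by Actb moved the median log2 ratio of all genes to 0.24 and turned Cd14 to 1.08. It left 2.94% of genes higher and 1.00% lower by 2-fold or more. Actb had a fold change of 0.867 on the probe set used. Its other probe sets ranged from 0.671 to 0.875, and division by their ratios was not tried. Without probe sets ending in _x_at, _s_at or _a_at, Pglyrp2 had no value. No paired analysis was possible because each strain has 1 pooled array. Signals of Slpi, Wfdc2, Cd14 and Pglyrp1 near or below 200 limit what their ratios can show.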

Other observations

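Among 24 listed genes of cytokine signalling and liver gene control, 23 were on the array and 18 reached 200. Of these, 1 was higher by 2-fold or more in FLS livers, beside 1.89% of all genes, and none was lower by as much, beside 1.30%. Their median log2 ratio was 0.09. The higher one was Nr1i3, the gene of the xenobiotic receptor CAR, with signals of 2819 in FLS livers and 1020.0 in DS livers, or an FLS/DS ratio of 2.76. Il1rap, a subunit of the interleukin-1 receptor, gave signals of 3564 in FLS livers and 4863 in DS livers, or an FLS/DS ratio of 0.733. Cebpb, a transcription factor of the acute phase response, had fold changes of 0.749 and 0.662 on its probe sets.

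The 7 measured markers of liver endothelium had a median log2 ratio of 0.01, none with a 2-fold difference, and Stab2 in this list, a scavenger receptor of sinusoids, had a fold change of 1.34. Of 15 markers of T and NK cells, 12 were on the array, 2 reached 200 and 10 were below 200 in both pools. Cd4 had a fold change of 0.904, and Cd3e was at least 1.04-fold lower in FLS livers. The summed signal over the 12, most of them below 200, was 1452 on the FLS array and 1481 on the DS array.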
